A study of Mus musculus with 8 samples.

Results

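The tripartite motif (TRIM) genes were followed in mouse bone marrow-derived macrophages polarized in culture. They were taken by name, as every gene whose annotated symbol is Trim followed by a number and at most 1 letter, and 57 such genes were measured among the 18193 named genes of the Affymetrix Mouse 430 2.0 array. A single further gene of the family that the choice left out is not reported here. The family was represented by 109 of the 45037 probe sets tested, 27 genes by a single probe set and 30 by several (at most 6), and each gene was read from the probe set with the highest mean log2 intensity. Another 10 genes of the family in RefSeq (Trim30b, Trim30c, Trim34b, Trim38, Trim43b, Trim43c, Trim50, Trim52, Trim55 and Trim58) had no probe set annotated to them alone and were not analysed here. M1 macrophages (3 arrays) had received both LPS (100 ng/ml) and IFN-γ (20 ng/ml), M2 macrophages (2 arrays) IL-4 (20 ng/ml) and M0 macrophages (3 arrays) media alone. All cells came from wild-type C57BL/6J mice and had been grown from marrow with L929 supernatant, a source of macrophage colony stimulating factor. On day 7 they were replated without that supernatant, also in M0, and they were harvested 24 hours later. The mice's age and sex were not given in the sources used here. The labels call the replicate arrays biological replicates, and the study's methods give both 2 to 3 independent mice and 2 to 3 replicates in vitro for each condition. P-values therefore measure the spread between arrays, part of which may be technical.

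TRIM proteins carry a RING finger, B-box zinc fingers and a coiled coil in a fixed order, and most are ubiquitin ligases, with the RING finger attaching ubiquitin and the C-terminal domain choosing the target. Many act in innate immunity, where they bind incoming viruses or tune the signalling of RNA and DNA sensors, and a subset is induced by interferon. Others act in muscle, neurons, germ cells, at the centrosome or on chromatin.

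The promoter sequences of 8 members are shown, and all of them except Trim25 hold a short motif. RefSeq promoter windows of GRCm38.p6, each of 300 bases from 250 before to 50 after a transcription start, were at hand for 46 of the 57 genes. The core of the interferon-stimulated response element (ISRE), which interferon regulatory factors and STAT complexes bind, was searched on both strands as the letters GAAA, any 2 bases and GAAA. It was present for 8 of the 46 genes (17.4%: Trim2, Trim5, Trim12a, Trim12c, Trim21, Trim26, Trim30d and Trim34a), against 3.99% of the 27025 genes with a window. Palindromic STAT motifs were searched too. The letters TTC and GAA around any 3 bases (GAS) were present for 4 of the 46 genes (8.7%), against 9.55% of all genes. Around any 4 bases they were present for 8 of the 46 (17.4%), against 8.01% of all genes, and neither motif can hold the whole ISRE core. Below are 130 bases for each of 8 genes, from 100 before to 30 after the start, with the ISRE letters in capitals (TTTC, 2 bases and TTTC where the core lies on the opposite strand). Trim26 has a stretch that begins 180 bases before its start, where its matches lie, and Trim25 has no match in its window. Trim2 holds the letters, but its stretch is not printed.
Trim30d, chr7:104507820-104507949, minus strand: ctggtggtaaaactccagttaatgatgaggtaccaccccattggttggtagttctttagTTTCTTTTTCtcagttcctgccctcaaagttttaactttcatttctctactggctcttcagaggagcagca
Trim34a, chr7:104244357-104244486, plus strand: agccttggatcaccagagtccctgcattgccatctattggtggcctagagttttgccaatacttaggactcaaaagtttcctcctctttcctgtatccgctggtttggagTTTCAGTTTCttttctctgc
Trim12a, chr7:104315466-104315595, minus strand: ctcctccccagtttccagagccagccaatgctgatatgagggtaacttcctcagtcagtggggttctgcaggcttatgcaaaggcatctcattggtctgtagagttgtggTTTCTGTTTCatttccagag
Trim12c, chr7:104353320-104353449, minus strand: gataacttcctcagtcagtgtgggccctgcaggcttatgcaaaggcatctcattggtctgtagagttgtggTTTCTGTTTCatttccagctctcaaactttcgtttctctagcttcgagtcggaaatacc
Trim5, chr7:104288077-104288206, minus strand: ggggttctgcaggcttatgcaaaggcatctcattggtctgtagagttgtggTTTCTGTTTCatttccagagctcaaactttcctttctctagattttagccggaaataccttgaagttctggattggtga
Trim21, chr7:102565453-102565582, minus strand: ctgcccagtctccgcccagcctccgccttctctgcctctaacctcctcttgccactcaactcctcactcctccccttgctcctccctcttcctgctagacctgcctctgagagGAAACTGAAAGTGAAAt
Trim25, chr11:88999303-88999432, plus strand: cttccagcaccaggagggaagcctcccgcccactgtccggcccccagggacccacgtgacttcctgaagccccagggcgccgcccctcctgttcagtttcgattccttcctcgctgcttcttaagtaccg
Trim26, chr17:36836966-36837095, plus strand: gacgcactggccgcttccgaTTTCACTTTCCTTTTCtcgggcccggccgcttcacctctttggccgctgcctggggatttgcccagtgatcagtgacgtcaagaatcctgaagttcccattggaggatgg

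The windows of Trim5 and Trim12a share an unbroken run of 241 bases that holds the ISRE letters, so these genes are near copies at their starts and not separate instances of the motif. The longest run that each shares with Trim12c has 71 bases and does not hold the letters. The stretch of Trim12c printed above nevertheless matches both without a break around the letters, so its match is not a separate instance either. Between Trim30d, Trim34a and Trim21 the longest shared runs were 8 to 10 bases. A match is a description of letters in a window and was not tested as a binding site.

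The 8 arrays had median intensities of 38.9 to 40.4 units, and 43 of the 57 TRIM genes had at least 1 condition mean above the array median. Within a condition, arrays correlated at 0.994 to 0.997. All 8 macrophage markers checked (such as Csf1r, Adgre1 and Cd68) were above the array median, their summed intensity being 76000 to 77620 units in M1, 53160 to 56860 in M2 and 78570 to 81230 in M0. Of the neutrophil markers 3 of 5 measured (Mpo, Ngp, Camp), of the T cell markers 3 of 4 (Cd3d, Cd3g, Cd2), of the B cell markers 1 of 4 (Ms4a1) and of the fibroblast markers 4 of 6 (Col1a1, Col3a1, Lum, Pdgfra) were at or under the median. The summed fibroblast markers were 204 to 342.8 units in M1, 162.6 to 263.3 in M2 and 144.8 to 173.7 in M0, and the summed B cell markers 124 to 170.1 units in M1, 166.1 to 169 in M2 and 177.1 to 200.1 in M0. The part of these marker levels in the TRIM results was not tested.

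M2 macrophages had lower levels of a set of antiviral TRIM genes than M0 macrophages, M1 macrophages had moderately higher levels of several of them, and Trim47 was the member that fell most in M1. Genes were called at an adjusted p under 0.05, whatever the fold, from limma (moderated test, all arrays in 1 fit, Benjamini-Hochberg adjustment over all probe sets). M1 and M2 are both compared with the same 3 M0 arrays, so their differences from M0 are not independent. Against M0, 11 of the 57 genes (19.3%) rose in M1, where 13.7% of all named genes did, and 5 (8.77%) fell, against 11.5% of all named genes. In M2, 13 of the 57 (22.8%) fell, against 6.43% of all named genes and 9.37% of the named genes with a condition mean above the array median, of which the TRIM family has 43. Higher in M2 were 2 (3.51%), against 8.03% of all named genes, and neither reached 2-fold, which 1.91% of all named genes did. With the further demand of at least 2-fold, 5 of the 57 (8.77%) fell in M2, against 1.76% of all named genes, and 1 rose (Trim6, dim in M0) and 1 fell in M1, against 2.8% and 3.2% of all named genes. The median log2 difference over the 57 genes was 0.03 for M1 minus M0 and -0.08 for M2 minus M0, against 0.02 and 0.01 over all named genes. On these bulk arrays, fewer cells with a transcript and less of it per cell cannot be told apart.

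**Figure D1:**
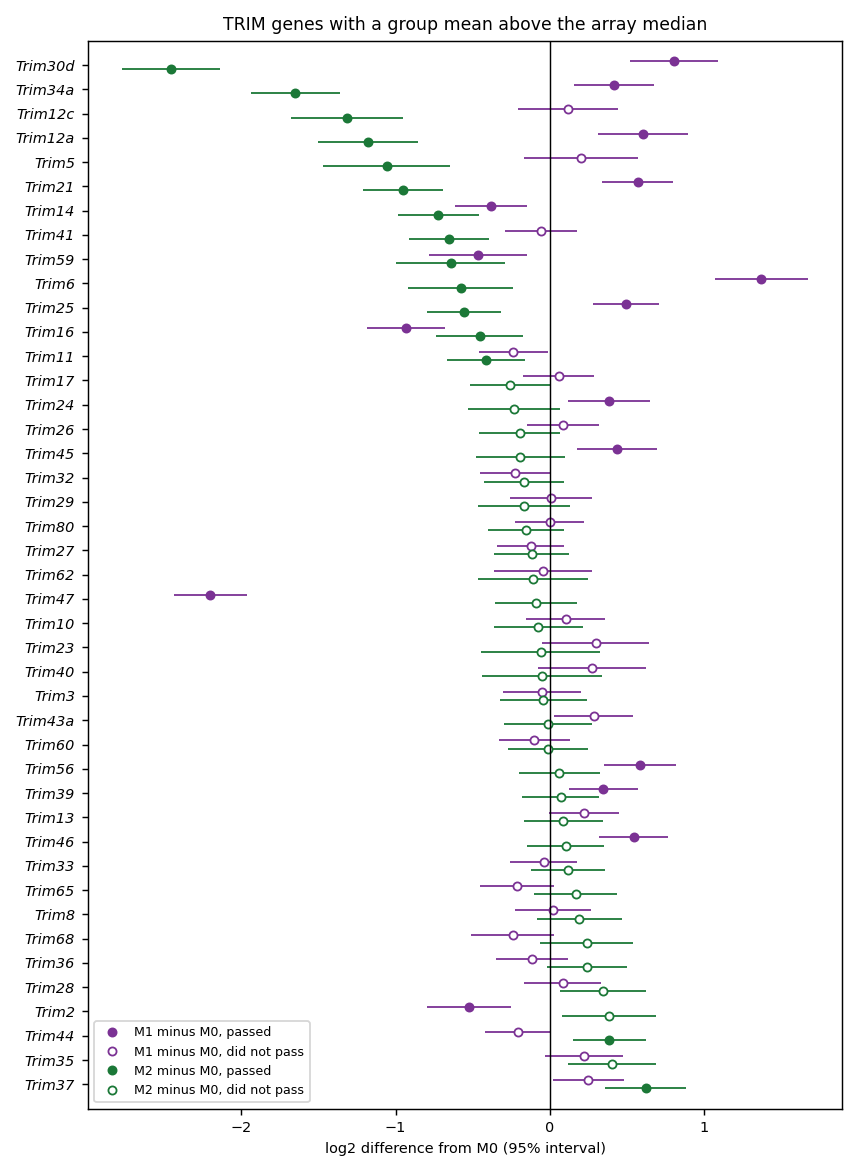
Log2 difference from M0 of the 43 TRIM genes with a condition mean above the array median, M1 minus M0 in purple and M2 minus M0 in green, with 95% intervals from limma; filled points passed at an adjusted p under 0.05. In M2, 13 genes lie at -0.41 or lower with filled points, while Trim47 at -2.20 is the lowest of the M1 points.

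Leaving out a single array moved some of these counts by over 1.5 times. The count of genes higher in M1 was 7 without M1 array 1 or without M1 array 2, and the count of genes lower in M1 was 3 without M0 array 2, M0 array 3 or M1 array 3. The count of genes higher in M2 was 0 without M2 array 1 and 1 without M2 array 2, M0 array 1 or M0 array 3. The count of genes lower in M2 stayed between 9 and 13. By the methods' t-test on log2 values, which estimates each gene's spread from its own arrays, 13 of the 57 genes were lower in M2 at an unadjusted p under 0.05 and 0 after Benjamini-Hochberg adjustment, while 5 were higher and 2 lower in M1 after adjustment.

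The largest falls in M2 were those of neighbouring genes on chromosome 7. In the RefSeq order of GRCm38.p6 the stretch holds Trim6, Trim34a, Trim5, Trim12a, Trim34b, Trim12c, Trim30b, Trim30c and Trim30d, of which 6 were measured. All 6 fell in M2, by log2 differences of -2.46 to -0.58 (median -1.25), and the 5 TRIM genes that fell at least 2-fold in M2 all lie here. Trim34a, Trim12a and Trim6 have second probe sets whose condition means were all under the array median. These did not pass in M2 (-0.04, -0.11 and -0.24, adjusted p = 0.92, 0.74 and 0.5 with limma). In M1, 4 of the 6 rose and Trim5 and Trim12c did not pass, with log2 differences of 0.12 to 1.37 (median 0.51) over the 6. The genes are close relatives, and probe sets of near copies can bind each other's transcripts. This was not tested.

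Trim30d, whose protein restricts tick-borne flaviviruses in mouse cells, had 1840, 1742 and 1689 units on the M1 arrays, 172 and 196 on the M2 arrays and 1002, 839 and 1209 on the M0 arrays. The 3 conditions did not overlap, with M2 lowest and M1 highest. The M2 level was 5.48-fold lower than in M0 (log2 difference -2.46, 95% interval -2.77 to -2.14, adjusted p = 4.2e-07 with limma). M1 was 1.75-fold higher than M0 (0.80, interval 0.52 to 1.09, adjusted p = 0.00067 with limma). Its second probe set also fell in M2, by 1.80 on the log2 scale, and was higher in M1 by 0.93.

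Trim34a is the mouse counterpart of human TRIM34, which acts with TRIM5 on some lentiviral capsids. It had 847, 875 and 755 units on the M1 arrays, 192 and 203 on the M2 arrays and 585, 556 and 725 on the M0 arrays. Again the conditions did not overlap. M2 was 3.14-fold lower than M0 (log2 difference -1.65, interval -1.94 to -1.36, adjusted p = 5.1e-06 with limma). The smaller difference in M1 (0.42, interval 0.16 to 0.67, adjusted p = 0.025 with limma) did not pass without M0 array 1 (adjusted p = 0.087), M0 array 2 (0.13), M1 array 1 (0.076) or M1 array 2 (0.081).

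Trim5, Trim12a and Trim12c are the mouse relatives of primate TRIM5, which recognises the capsids of incoming retroviruses. Trim12a had 286, 342 and 237 units on the M1 arrays, 85 and 80.9 on the M2 arrays and 189, 170 and 206 on the M0 arrays. All M1 arrays were above and both M2 arrays below every M0 array, and both differences passed (M1 0.60, interval 0.31 to 0.89, adjusted p = 0.0061; M2 -1.18, standard error 0.15, adjusted p = 0.00023, limma). Trim12c had 424, 438 and 297 units on the M1 arrays, 135 and 148 on the M2 arrays and 333, 324 and 402 on the M0 arrays. Here M1 and M0 overlapped (log2 difference 0.12, interval -0.21 to 0.44, adjusted p = 0.69 with limma), while M2 was 2.49-fold lower than M0 (-1.31, interval -1.68 to -0.95, adjusted p = 0.00023 with limma). Trim5 had 176, 178 and 122 units on the M1 arrays, 80.1 and 53.5 on the M2 arrays and 141, 127 and 142 on the M0 arrays. The third M1 array lay below every M0 array and the other two above, so M1 and M0 were not separated (0.20, interval -0.17 to 0.57, adjusted p = 0.51), and M2 was 2.08-fold lower than M0 (-1.06, interval -1.47 to -0.65, adjusted p = 0.0028 with limma).

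Trim6, whose human protein makes free ubiquitin chains that activate the kinase IKKε, had its larger difference in M1. Its intensities were 94.5, 71.2 and 68.2 units on the M1 arrays, 18.7 and 21.3 on the M2 arrays and 26.1, 31.3 and 32.6 on the M0 arrays, so the M2 and M0 arrays were under the array median. M1 was higher than M0 (log2 difference 1.37, interval 1.07 to 1.67, adjusted p = 1.8e-05 with limma), but the size of that difference rests on dim M0 values: with intensities under 64 units raised to 64 it was 0.27 and did not pass (adjusted p = 0.4). The M2 difference (-0.58, interval -0.92 to -0.24, adjusted p = 0.029 with limma) was that of 2 dim groups. It did not pass without M0 array 2 (adjusted p = 0.096), M0 array 3 (0.093), M2 array 1 (0.19) or M2 array 2 (0.071). A second probe set of Trim6, with condition means under the array median, did not pass in M1 (0.23, adjusted p = 0.41 with limma).

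**Figure D2:**
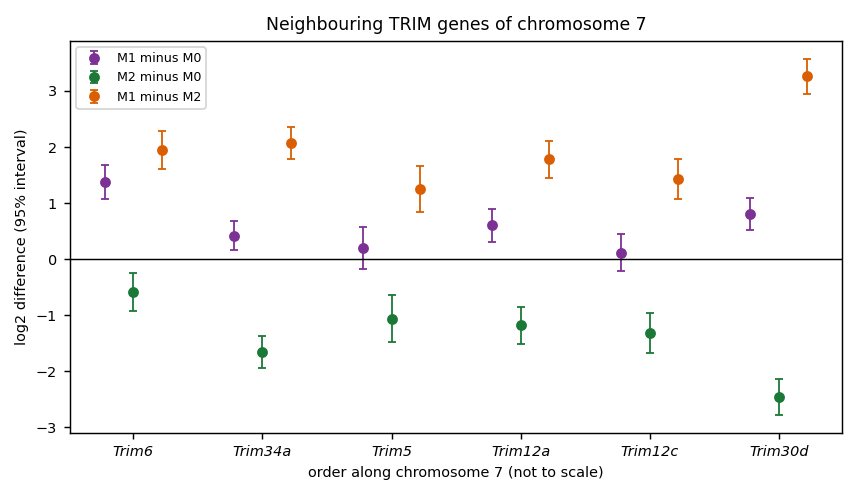
Log2 differences of the 6 measured TRIM genes of the chromosome 7 stretch in RefSeq order (not to scale), for M1 minus M0 (purple), M2 minus M0 (green) and M1 minus M2 (orange), with 95% intervals from limma. All 6 M2 points lie below 0 and all M1 minus M2 points above it, the widest span being that of Trim30d (-2.46 and 3.26).

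Trim21 and Trim25, of antibody recognition and sensor signalling, were also highest in M1 and lowest in M2. Trim21 (elsewhere on chromosome 7) encodes the cytosolic Fc receptor that binds antibody-coated viruses, and it had 1024, 1167 and 1271 units on the M1 arrays, 402 and 398 on the M2 arrays and 768, 738 and 823 on the M0 arrays. No array of a condition overlapped another condition. It was 1.48-fold higher in M1 (log2 difference 0.57, interval 0.34 to 0.80, adjusted p = 0.0019) and 1.94-fold lower in M2 (-0.95, interval -1.21 to -0.70, adjusted p = 0.00019, limma). Trim25 (chromosome 11), the ligase that ubiquitinates the RNA sensor RIG-I, had 5107, 4359 and 4709 units on the M1 arrays, 2292 and 2258 on the M2 arrays and 3462, 3201 and 3401 on the M0 arrays. The order was the same as for Trim21, with M1 above M0 by 0.49 on the log2 scale (interval 0.28 to 0.71, adjusted p = 0.003) and an M2 difference of -0.56 (interval -0.80 to -0.32, adjusted p = 0.0051, limma).

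Trim14 and Trim56 departed from that order. Trim14 (chromosome 4), which lacks a RING finger and works as a scaffold on the mitochondrial adaptor MAVS and on the DNA sensor cGAS, had 1420, 1687 and 1524 units on the M1 arrays, 1267 and 1163 on the M2 arrays and 1928, 1896 and 2200 on the M0 arrays. Every M1 and M2 array was below every M0 array. The fall in M2 was 1.65-fold (log2 difference -0.72, interval -0.98 to -0.46, adjusted p = 0.0017 with limma). In M1 it was 1.3-fold (-0.38, interval -0.61 to -0.15, adjusted p = 0.024 with limma), a call that was lost without M0 array 3 (adjusted p = 0.11), M1 array 1 (0.094) or M1 array 3 (0.06). Trim56 (chromosome 5), which promotes signalling downstream of cytosolic DNA, had 256, 249 and 260 units on the M1 arrays, 169 and 187 on the M2 arrays and 194, 161 and 158 on the M0 arrays. M1 was 1.5-fold higher than M0 (0.58, interval 0.35 to 0.82, adjusted p = 0.0017), and M2 overlapped M0 (0.06, interval -0.20 to 0.32, adjusted p = 0.83, limma).

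Trim41 (chromosome 11), whose human protein binds influenza nucleoprotein, had 719, 791 and 646 units on the M1 arrays, 440 and 510 on the M2 arrays and 751, 725 and 758 on the M0 arrays. M1 overlapped M0 and M2 did not. The M2 difference was -0.65 (interval -0.92 to -0.39, adjusted p = 0.0034) and that of M1 -0.06 (interval -0.29 to 0.18, adjusted p = 0.8, limma). A dimmer probe set of the gene fell in both, by 0.76 in M1 and 0.76 in M2 on the log2 scale. Trim11, whose human protein helps to clear misfolded proteins, had 256, 278 and 226 units on the M1 arrays, 213 and 233 on the M2 arrays and 302, 295 and 295 on the M0 arrays, with an M2 difference of -0.41 (interval -0.67 to -0.16, adjusted p = 0.036 with limma). That call did not survive leaving out any M0 array (adjusted p = 0.085 to 0.096), M2 array 1 (0.19) or M2 array 2 (0.075).

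**Figure D3:**
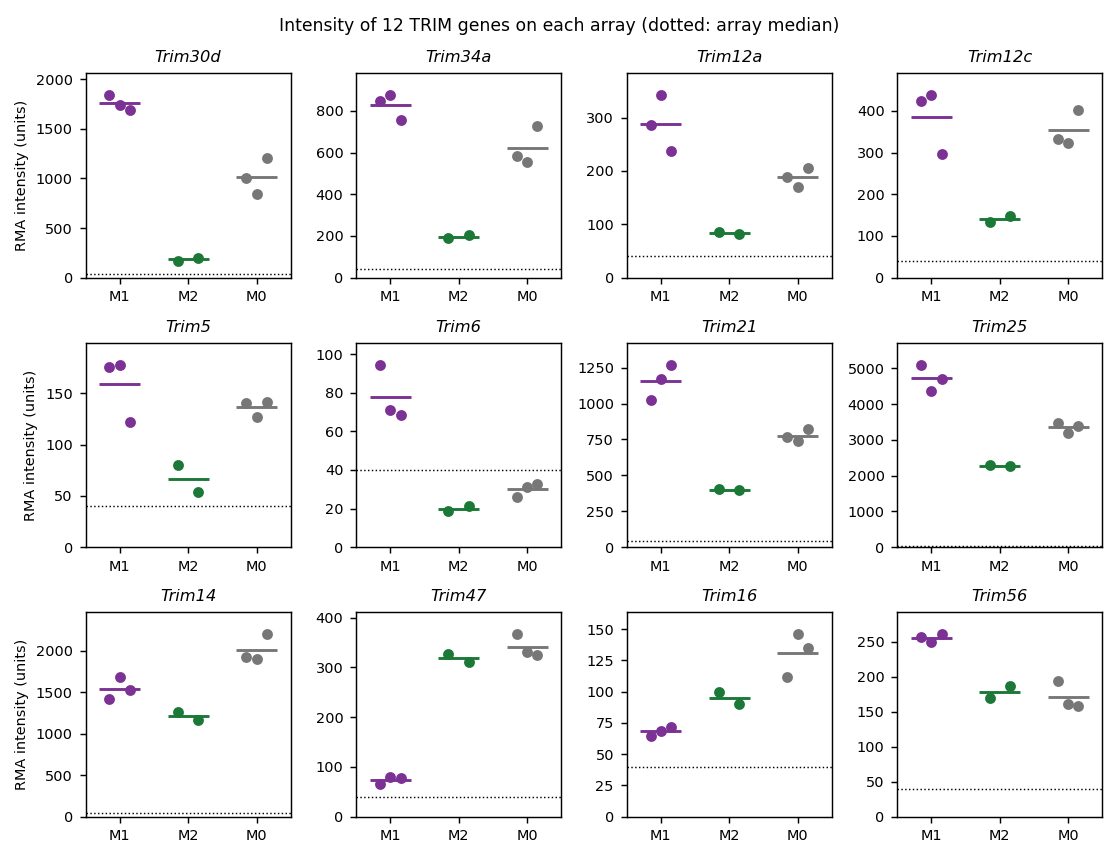
RMA intensity of 12 TRIM genes on each array (linear axes from 0), M1 in purple, M2 in green and M0 in grey, with the condition mean as a bar and the array median as a dotted line. In the chromosome 7 genes, Trim21 and Trim25 the M2 arrays are lowest, whereas in Trim47 and Trim16 the M1 arrays are lowest.

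In M1 macrophages the largest difference of the family was a fall. Trim47 (chromosome 11), a RING ligase reported to act on the deubiquitinase CYLD, had 65, 79.9 and 78.1 units on the M1 arrays, 326 and 312 on the M2 arrays and 367, 331 and 324 on the M0 arrays. The M1 arrays stood far below all others, and M2 lay within or close to the M0 range. M1 was 4.59-fold lower than M0 (log2 difference -2.20, interval -2.44 to -1.96, adjusted p = 5.5e-08 with limma), and the M2 difference was -0.09 (interval -0.36 to 0.17, adjusted p = 0.73). Trim16 (chromosome 11), which recruits autophagy factors to damaged membranes, had 64.2, 68.7 and 71.9 units on the M1 arrays, 99.5 and 90.4 on the M2 arrays and 112, 146 and 135 on the M0 arrays. The conditions did not overlap, with M1 lowest (-0.93, interval -1.18 to -0.68, adjusted p = 9.1e-05 with limma). The M2 difference of Trim16 (-0.46, interval -0.74 to -0.17, adjusted p = 0.038 with limma) did not pass without M0 array 2 (adjusted p = 0.15), M0 array 3 (0.11), M2 array 1 (0.086) or M2 array 2 (0.2).

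Trim2 (chromosome 3), a neuronal ligase of neurofilament, was dim, with 25.5, 24 and 24.9 units on the M1 arrays, 51.7 and 41.9 on the M2 arrays and 32.9, 42.4 and 32.6 on the M0 arrays. It fell in M1 (log2 difference -0.52, interval -0.80 to -0.25, adjusted p = 0.0096 with limma; 0.054 without M0 array 2), and M2 overlapped M0 (0.38, interval 0.08 to 0.69, adjusted p = 0.11). Trim59 (chromosome 3), a membrane-anchored member described in human cells as a brake on NF-κB and interferon signalling, had 73.6, 64.5 and 64.7 units on the M1 arrays, 61.8 and 57.7 on the M2 arrays and 76.1, 118 and 90.1 on the M0 arrays. Both conditions were below every M0 array, and the M0 arrays were spread widely. The M1 difference (-0.47, interval -0.78 to -0.15, adjusted p = 0.038 with limma) was lost without M0 array 2 (adjusted p = 0.17), M0 array 3 (0.071), M1 array 2 (0.11), M1 array 3 (0.11) or either M2 array (0.052). The M2 difference (-0.64, standard error 0.16, adjusted p = 0.021 with limma) was lost without M0 array 2 (adjusted p = 0.065), M2 array 1 (0.082) or M2 array 2 (0.13). Its second probe set, also above the array median, passed neither in M1 (-0.15, adjusted p = 0.77) nor in M2 (-0.21, adjusted p = 0.73, limma). Both Trim59 calls were lost with the mean of all probe sets of the gene (adjusted p = 0.29 in M1 and 0.22 in M2, limma).

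Higher in M2 than in M0 were Trim37 and Trim44. Trim37 (chromosome 11), a ligase of the centrosome and the peroxisome, had 284, 280 and 305 units on the M1 arrays, 406 and 344 on the M2 arrays and 225, 265 and 242 on the M0 arrays. M2 was above all other arrays, 1.54-fold over M0 (log2 difference 0.62, interval 0.36 to 0.88, adjusted p = 0.0046 with limma; 0.059 without M2 array 1). The call was also lost with the mean of all probe sets of the gene (0.29, adjusted p = 0.1) and with its brightest probe set without an s or x suffix (0.45, adjusted p = 0.064). M1 was also above every M0 array but did not pass (0.25, interval 0.02 to 0.48, adjusted p = 0.14). The brightest Trim37 probe set without an s or x suffix did pass in M1 (0.41, adjusted p = 0.042 with limma). It was the only 1 of the 5 above the array median to do so. Trim44 (chromosome 2), which lacks a RING finger, had 505, 572 and 508 units on the M1 arrays, 758 and 832 on the M2 arrays and 604, 616 and 606 on the M0 arrays. Its M2 difference (0.38, interval 0.15 to 0.62, adjusted p = 0.038 with limma) did not pass when any 1 M0 array (adjusted p = 0.09 to 0.1), M2 array 1 (0.071) or M2 array 2 (0.19) was left out, and that of M1 was -0.21 (interval -0.42 to 0.01, adjusted p = 0.18).

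Another 4 genes rose moderately in M1 and did not pass in M2. Trim46, which bundles microtubules at the start of axons, had 83.5, 98.8 and 93.2 units on the M1 arrays, 64.6 and 70.4 on the M2 arrays and 66.1, 63.4 and 59.3 on the M0 arrays (M1 minus M0 0.54, interval 0.32 to 0.77, adjusted p = 0.0021 with limma). Trim45, a repressor of MAP kinase signalling in human cells, had 92, 98.7 and 83.3 units on the M1 arrays, 61.9 and 56.4 on the M2 arrays and 74.1, 71.3 and 58.1 on the M0 arrays (M1 minus M0 0.43, adjusted p = 0.02 with limma). For both, every M1 array was above every other array. The Trim45 call was lost without M0 array 3 (adjusted p = 0.099), M1 array 1 (0.058) or M1 array 2 (0.073). Trim24, a chromatin reader and corepressor, had 213, 194 and 185 units on the M1 arrays, 126 and 132 on the M2 arrays and 127, 159 and 171 on the M0 arrays (0.38, adjusted p = 0.043 with limma). Leaving out any array other than M0 array 3 ended that call (adjusted p = 0.054 to 0.17). Trim39, which inhibits the anaphase-promoting complex, had 94.3, 102 and 89.2 units on the M1 arrays, 74 and 82.9 on the M2 arrays and 77.2, 77.9 and 69.3 on the M0 arrays (0.35, adjusted p = 0.031 with limma). Its call was lost without M0 array 1 (adjusted p = 0.055), M0 array 2 (0.065), M0 array 3 (0.13), M1 array 1 (0.071) or M1 array 2 (0.1).

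Roles were assigned for this report, a single role per gene. The 28 antiviral and innate immune members held 11 of the 13 genes that fell in M2, the other 2 being Trim41 and Trim16. The remaining 17 of the 28 did not pass in M2. There 6.43% of all named genes fell, and 9.37% of those with a condition mean above the array median, as 24 of the 28 had. Trim41 was placed outside this group and Trim11 and Trim68 within it, so the split depends on the assignment. In M1, 7 of the 28 rose (Trim30d, Trim34a, Trim12a, Trim6, Trim21, Trim25 and Trim56) and 2 fell (Trim14 and Trim59), against 13.7% and 11.5% of all named genes. The median log2 difference of the 28 was 0.10 in M1 and -0.17 in M2, against 0.02 and 0.01 over all named genes. Innate members with no call in any comparison included Trim26 (344 and 338 units in M2, 436, 367 and 373 in M0), Trim13, Trim8 and Trim32, and Trim35, a bright member with 3123, 4028 and 3890 units in M1, 3950 and 4355 in M2 and 3161, 3338 and 2936 in M0. Trim35 had an M2 difference of 0.40 (interval 0.12 to 0.69, adjusted p = 0.07), so that a modest change cannot be set aside at this number of arrays.

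The chromatin corepressors Trim28, the partner of zinc finger repressors, and Trim33, a regulator of Smad signalling, did not pass in any comparison. Trim28 had 1761, 2164 and 2257 units on the M1 arrays, 2301 and 2622 on the M2 arrays and 1956, 1984 and 1871 on the M0 arrays, an M2 difference of 0.34 (interval 0.06 to 0.62, adjusted p = 0.11). Trim33 lay between 455 and 557 units on all arrays, with differences of -0.04 in M1 and 0.12 in M2. The muscle genes Trim54, Trim63 and Trim72 and the germline genes Trim42, Trim61 and Trim75 were under the array median in each condition, and neither these nor the other germline genes (Trim43a, Trim60 and Trim80) passed. In all, 33 of the 57 genes passed in no comparison, 19 of them above the array median, and the 14 genes under the median had condition means of 6.49 to 30.9 units.

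Set directly against each other, M1 exceeded M2 for 13 of the 57 genes (22.8%, against 11.5% of all named genes) and was below M2 for 7 (12.3%, against 12.3%). At 2-fold or more, 8 genes (14%) were higher in M1, against 3.42% of all named genes. These were the 6 genes of the chromosome 7 stretch, Trim21 and Trim25, with log2 differences of 1.05 for Trim25 (adjusted p = 2e-05 with limma) to 3.26 for Trim30d (9.58-fold, interval 2.94 to 3.58, adjusted p = 1.3e-08). Trim6 was dim in M2 and did not pass with the limit of 64 units (0.27, adjusted p = 0.17). On its second probe set the difference was 0.47 and did not pass (adjusted p = 0.1 with limma). Trim47 was the 1 gene at least 2-fold lower in M1 than in M2 (4.31-fold, log2 difference -2.11, interval -2.37 to -1.84, adjusted p = 1.1e-07 with limma), a share of 1.75% against 4% of all named genes. The median over the 57 genes was 0.16, against 0.00 over all named genes. This comparison uses the same M1 and M2 arrays as those with M0 and adds no samples.

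Smaller differences between M1 and M2 included higher M1 levels of Trim41 (log2 difference 0.60, adjusted p = 0.0034), Trim45 (0.62, adjusted p = 0.0047), Trim24 (0.62, adjusted p = 0.0063; 0.055 without M2 array 1), Trim56 (0.52, adjusted p = 0.0081; 0.08 without M2 array 1) and Trim46 (0.44, adjusted p = 0.016; 0.052 without M1 array 2 and 0.12 without M2 array 1), all with limma. Lower in M1 were Trim2 (-0.91, adjusted p = 0.00051), Trim44 (-0.59, adjusted p = 0.0019) and Trim16 (-0.48, adjusted p = 0.021; 0.071 without M1 array 1 and 0.15 without M2 array 1), also with limma. Trim68, a ligase linked to the androgen receptor in human cells, had 37.2, 44.7 and 34 units on the M1 arrays, 52.2 and 54.9 on the M2 arrays and 43.1, 41.9 and 51.8 on the M0 arrays, M1 and M2 not overlapping (-0.48, adjusted p = 0.03 with limma). Its call was lost without M1 array 1 (adjusted p = 0.083), M1 array 3 (0.087), M2 array 1 (0.096) or M2 array 2 (0.14). Trim65, the ligase of the RNA sensor MDA5, had 85.6, 104 and 99.9 units on the M1 arrays, 136 and 115 on the M2 arrays and 113, 108 and 115 on the M0 arrays (-0.38, adjusted p = 0.049 with limma). That call ended when any 1 M0 array (adjusted p = 0.063 to 0.076), M1 array 1 (0.16), M1 array 3 (0.063) or M2 array 1 (0.31) was left out. The Trim37 difference (-0.37, adjusted p = 0.049 with limma) was lost on leaving out any 1 array other than M2 array 2 (adjusted p = 0.052 to 0.31). It was -0.07 with the mean of all probe sets of the gene (adjusted p = 0.73 with limma). On the brightest probe set without an s or x suffix it was -0.04 (adjusted p = 0.9 with limma). The count of genes lower in M1 than in M2 was 3 without M1 array 1 or without M2 array 1.

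Genes with several probe sets above the array median showed where the choice of probe set bears on a value. For Trim21, Trim25 and Trim30d each such probe set was higher in M1 (2 of 2, 3 of 3 and 2 of 2 passed) and all were lower in M2, where 2 of 2, 2 of 3 and 2 of 2 passed. The second Trim12c probe set had 59.7 and 49 units on the M2 arrays and 54, 81.5 and 127 on the M0 arrays, a log2 difference of -0.61 that did not pass (interval -1.25 to 0.03, adjusted p = 0.24 with limma). For Trim44 the dimmer probe sets rose in M1 (log2 differences 0.54 and 0.57, adjusted p = 0.028 and 0.015 with limma), while the brightest had -0.21. Between M1 and M2 the same dimmer probe sets differed by 0.15 and 0.17, against -0.59 for the brightest, and the dimmer probe set of Trim41 differed by -0.0069, against 0.60 for the brightest. The second Trim24 probe set above the array median did not pass for M1 minus M0 (0.34, adjusted p = 0.053 with limma). Nor did it pass for M1 minus M2 (0.27, adjusted p = 0.19 with limma). The probe sets of Trim35 ranged from -0.42 to 0.45 in M1, and those of Trim37 from -0.06 to 0.62 in M2. A second probe set of Trim36, a centrosome-linked member, was higher in M2 than in M0 (0.60, adjusted p = 0.039 with limma) where the brightest had 0.24 (adjusted p = 0.24). Between M1 and M2 this second probe set differed by -0.89 (adjusted p = 0.0026), against -0.36 for the brightest (adjusted p = 0.055, limma).

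**Figure D4:**
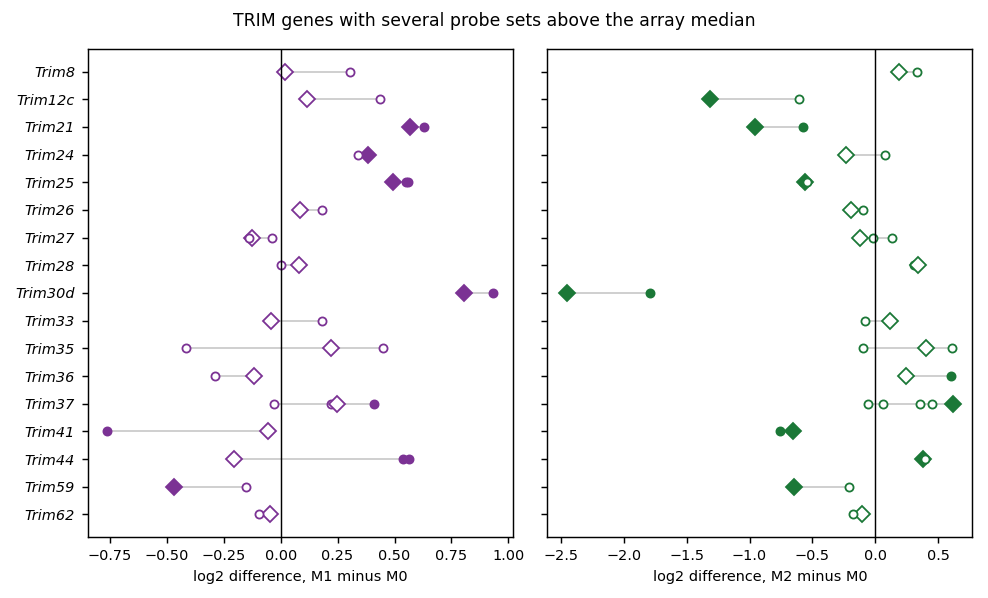
Log2 difference of each probe set above the array median, for the TRIM genes that have several, M1 minus M0 on the left and M2 minus M0 on the right; diamonds mark the probe set used for the gene and filled symbols an adjusted p under 0.05. Probe sets lie close together for Trim25 (-0.57 to -0.55 in M2) and apart for Trim41 (-0.76 to -0.06 in M1).

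Read beside the promoter sequences above, 10 of the 13 genes that fell in M2 had a window and 6 of these held the ISRE letters (Trim30d, Trim34a, Trim12a, Trim12c, Trim5 and Trim21). Of the 42 genes that did not pass in M2, 34 had a window and 2 held the letters, Trim2 and Trim26. Of the 11 genes that rose in M1, all had a window and 4 held the letters (Trim30d, Trim34a, Trim12a and Trim21). Of the 5 genes that fell in M1, 3 had a window and 1 held the letters (Trim2), and of the 41 that did not pass in M1, 32 had a window and 3 held them (Trim5, Trim12c and Trim26). Trim25 fell in M2 without the letters in its window, and Trim26 held them in 2 overlapping places without passing in either comparison. Trim5, Trim12a and Trim12c match each other around the letters and are not separate instances in these counts. Of all genes with a window 3.99% held the letters. The share among all named genes that fell in M2 is not given here, so a link particular to the family cannot be read from these counts.

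Genes without a Trim number were followed in 3 lists, of RNA and DNA sensing, of interferon signalling and of relatives of the family. Of 18 genes of RNA and DNA sensing, 10 fell in M2 and 8 did not pass (median log2 difference -0.43), and in M1 10 rose, 1 fell and 7 did not pass (median 0.41). Of all named genes 6.43% fell in M2, 13.7% rose in M1 and 11.5% fell in M1, with medians of 0.01 in M2 and 0.02 in M1. Ddx58, which encodes RIG-I, the substrate of TRIM25, had 1668, 1704 and 1530 units on the M1 arrays, 264 and 298 on the M2 arrays and 929, 796 and 1078 on the M0 arrays. No condition overlapped another (M1 minus M0 0.82, adjusted p = 0.00036; M2 minus M0 -1.73, adjusted p = 4.4e-06, limma). Dhx58, the related helicase LGP2, differed by 0.83 in M1 and -1.72 in M2 (adjusted p = 0.00027 and 3.8e-06), and Zbp1, a sensor of Z-form nucleic acid, by 0.85 and -1.97 (adjusted p = 0.0004 and 2.3e-06, limma). Herc6, the main mouse ligase for the ubiquitin-like ISG15, differed by 2.14 in M1 and -1.51 in M2 (adjusted p = 3.6e-07 and 3.4e-05 with limma). Ikbke, the kinase IKKε, had an M2 difference of -1.65 (adjusted p = 6.7e-06) and did not pass in M1 (-0.33, adjusted p = 0.085).

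Of 16 genes of interferon signalling, 12 rose and 2 fell in M1 (median 0.97), and in M2 9 did not pass, 3 rose and 4 fell (median -0.12). Over all named genes 13.7% rose and 11.5% fell in M1 (median 0.02), and 8.03% rose and 6.43% fell in M2 (median 0.01). Irf7, the factor that amplifies type I interferon production, had 7263, 6735 and 7442 units on the M1 arrays, 372 and 325 on the M2 arrays and 4047, 2946 and 4252 on the M0 arrays. The M2 arrays were far below all others (log2 difference -3.41, adjusted p = 4.1e-08), and M1 was higher than M0 by 0.95 (adjusted p = 0.00028, limma). Usp18, the protease that removes ISG15, rose by 1.90 in M1 (adjusted p = 2.4e-06 with limma), with an M2 difference of -0.40 (adjusted p = 0.17). Jak2 was higher in both conditions (2.87 in M1 and 1.87 in M2, adjusted p = 3.2e-08 and 4.7e-06), as was the feedback inhibitor Socs1 (2.86 and 3.66, adjusted p = 1.2e-06 and 8.4e-07, limma). Socs3 was higher in M1 (4.02, adjusted p = 3.1e-06 with limma), and its M2 difference was -0.70 (adjusted p = 0.28).

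Among 10 relatives of the family that carry no Trim number, 1 rose (Mefv) and 1 fell (Pml) in M1, against 13.7% and 11.5% of all named genes, and 1 fell in M2 (Pml), against 6.43%. Mefv, Pml and Fsd1 were higher in M1 than in M2 (3 of 10, against 11.5% of all named genes), Fsd1 by 0.34 (adjusted p = 0.044 with limma). Mefv, which encodes the inflammasome sensor pyrin, had 263, 430 and 448 units on the M1 arrays, 146 and 198 on the M2 arrays and 103, 120 and 126 on the M0 arrays, and was 3.19-fold higher in M1 than in M0 (log2 difference 1.67, adjusted p = 4.4e-05 with limma). Its M2 arrays were also above every M0 array without passing (0.55, adjusted p = 0.13). Pml, the organiser of nuclear bodies, had 402, 484 and 416 units on the M1 arrays, 336 and 310 on the M2 arrays and 595, 547 and 713 on the M0 arrays. Like Trim14, it was below M0 in both conditions (M1 -0.51, adjusted p = 0.0095; M2 -0.93, adjusted p = 0.00065, limma).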

How the data were processed

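RNA of bone marrow-derived macrophages was hybridized to 8 Affymetrix Mouse 430 2.0 arrays. Normalization by the authors was with RMA (version not given in the sources used here) in GenePattern's Expression File Creator, and the deposited values are intensities on a linear scale for 45101 probe sets. The log2 of each intensity was taken, 64 control probe sets were left out and 45037 were tested. The fit used limma 3.58.1 in R 4.3.3 (lmFit, eBayes; a mean per condition, 5 residual and 6.95 prior degrees of freedom). P-values were adjusted by Benjamini-Hochberg over all probe sets, and a gene passed at an adjusted p under 0.05. RMA pools probes and sets no detection call, so the array median served as a mark of dim genes, and the number of arrays limits the precision. The procedure was tested on simulated data.

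Genes were named from the platform annotation, from 34945 probe sets with 1 symbol, and 5 probe sets with a Trim symbol beside another were left out. All 57 entrez identifiers carried the same symbol in RefSeq. Of the brightest probe sets 7 have the suffix s or x, which marks probes shared between transcripts. The family members and gene lists were chosen with earlier results of these data known. Values on every array are given for TRIM genes that passed in any comparison and were above the array median (24 genes), and for other lists at most 5 genes with the largest differences. A few further members were named after their values were seen. The sample titles repeat the same WT numbers across conditions, but no source ties a number to 1 mouse, and no pairing was used. Arrays of the same replicate number did not deviate together. Deviations from means of so few arrays are tied to each other, so they cannot tell whether the arrays are paired. Promoter windows were RefSeq's (GRCm38.p6). Alternatives were the methods' unpaired test, other normalizations, a lower limit, other probe set choices, stricter thresholds and leaving out each array. Motif searches and figures used Python 3.11.15, the latter with matplotlib 3.10.9.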

Additional observations from a re-analysis of the deposited data

How the results depend on the processing

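The count of TRIM genes lower in M2 than in M0 (13) was 8 with intensities under 64 units raised to 64, 5 with at least 2-fold demanded, and 0 by the methods' t-test on log2 or on linear values after Benjamini-Hochberg adjustment (13 at an unadjusted p under 0.05 with either). Genes higher in M1 than in M0 (11) numbered 5 with the limit of 64 units, 7 at an adjusted p under 0.01, 1 at 2-fold and 5 by the t-test on either scale. Genes lower in M1 than in M0 (5) numbered 2 with the limit, 3 at 0.01, 1 at 2-fold and 2 by either t-test. Genes higher in M2 than in M0 (2) numbered 1 under further quantile normalization, the limit, the mean of all probe sets, 0.01, the replicate block, or the brightest probe set without s or x suffix, 0 at 2-fold, and 0 by either t-test (4 at an unadjusted p under 0.05). They numbered 3 with intensity trend and robust variances, with the compared conditions alone, and with dim probe sets left out. Genes higher in M1 than in M2 (13) numbered 8 at 2-fold, 4 by the t-test on log2 and 2 on linear values, and genes lower in M1 than in M2 (7) numbered 2 with the limit, 3 at 0.01, 1 at 2-fold, 4 with the replicate block and 1 by either t-test. Without each array in turn, these counts were 9 to 13 (lower in M2 than M0), 7 to 12 (higher in M1 than M0), 3 to 6 (lower in M1 than M0), 0 to 3 (higher in M2 than M0), 10 to 13 (higher in M1 than M2) and 3 to 6 (lower in M1 than M2). The replicate number as a block ended 8 of the 51 calls of single genes and turned none. Deviations of arrays with the same number correlated at -0.172 to 0.0547 (7 pairs), against -0.150 to 0.190 for the others (14 pairs). Taken from means of few arrays, these deviations are tied to each other and cannot tell whether arrays with the same number share an origin. Of the single-gene calls 1 reversed, that of Trim41 in M1 minus M2, which was -0.0069 on its probe set without s or x suffix, against 0.60. Over the other settings that keep all arrays, 476 values stayed past the threshold and 186 did not, and the causes were not tested. With a single array left out, 334 values stayed past it and 74 did not. Only 4 of the 51 single-gene calls were kept under every alternative, the stricter thresholds and t-tests included. The limit of 64 units removes the signal of dim genes such as Trim6 by its construction. The number of arrays (3 of M1, 2 of M2 and 3 of M0) limits the precision, and small differences whose intervals hold 0 were not detectable here.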
